A study of Mus musculus with 24 samples.

Results

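The genes described are 44 genes of DNA replication and the S phase, chosen by symbol and matched through their Ensembl identifiers, of 55471 genes in the deposited tables. They cover the MCM helicase (6 genes), origin licensing (5), helicase activation (6), the replicative polymerases and primase (8), the sliding clamp and its loader (6), the single-strand binding protein RPA with the lagging-strand enzymes (4), nucleotide supply (4), the switch from G1 into S phase (4) and maintenance methylation (1). Bone and skin were taken from female mice aged 10 weeks, and the title of the study names a sarcoma model in mice. Each tissue had 4 libraries labelled F-PRT, taken to mean proton beams delivered at the ultra-high dose rate called FLASH, 4 labelled S-PRT, taken to mean proton beams at the standard dose rate, and 4 labelled Untreated. The labels call the libraries within a group biological replicates, and each bone library shares a sample code with 1 skin library without a statement that they came from the same mouse. They give no strain, dose, time after irradiation, irradiated field or tumour status, so what limits the groups as models cannot be told. All 44 genes passed the filter on low counts in both tissues.

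Before a cell divides, the origin recognition complex, Cdc6 and Cdt1 load the MCM ring onto DNA in G1. In S phase Mcm10, Cdc45 and the GINS complex turn that ring into a working helicase, primase and the polymerases copy both strands, and the clamp Pcna holds the polymerases on the template. Many of these genes are transcribed in late G1 by E2F factors, which cyclin E with its kinase helps to set free from the retinoblastoma protein. In adult mice the marrow inside bone is among the most actively dividing tissues, and in skin division sits mainly in the basal epidermis and the growing hair follicle.

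Sequence at the start of these genes was examined because E2F factors bind there, and the words searched were TTTCCCGC, TTTGGCGC, TTTGCCGC and TTTCGCGC on both strands. RefSeq promoter windows of 300 bases (250 before and 50 after the start, GRCm38.p6) were at hand for 35 of the 44 genes. A gene with several windows was counted once, as a match if any of them held a word. Of the 35 genes 15 (42.9%) held at least 1 of these words, against 704 of all 27025 genes with a window (2.6%). The words can overlap, as they do in the 120 bases before the start of Mcm6, a helicase subunit (chr1:128359706-128359825, minus strand), shown because it held 3 matches, in capitals:
Mcm6: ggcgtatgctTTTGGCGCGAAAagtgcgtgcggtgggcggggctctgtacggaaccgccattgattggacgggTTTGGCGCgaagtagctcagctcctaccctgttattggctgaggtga
Starts are those of RefSeq and can differ from the gene bounds given below. For E2f2 the start used lies before those bounds. For Uhrf1 the start used lies inside them, and its window at an earlier start held 0 E2F words. The next 5 are the matches of 30 bases in the genes that fell in bone after F-PRT and had a window with a match, again with the word in capitals. They lie at chr4:136172294-136172323 (plus strand, the word beginning 39 bases after the start of E2f2), chr8:95633507-95633536 (plus, 41 bases before the start of Gins3), chrX:93632275-93632304 (minus, 138 before the start of Pola1), chr17:56304117-56304146 (plus, 185 before the start of Uhrf1) and chr7:44548766-44548795 (minus, 39 after the start of Pold1):
E2f2: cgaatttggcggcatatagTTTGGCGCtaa
Gins3: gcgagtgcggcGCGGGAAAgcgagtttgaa
Pola1: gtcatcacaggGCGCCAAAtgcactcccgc
Uhrf1: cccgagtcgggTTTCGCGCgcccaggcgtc
Pold1: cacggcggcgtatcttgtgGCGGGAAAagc
Among genes with a window, 5 of 11 (45.5%) that fell in bone after F-PRT held such a word, and 10 of 24 (41.7%) not past the test. In a list of 28 mitosis genes 1 of the 25 with a window (4%) held an E2F word, while 18 of 25 (72%) held TTTGAA. That word is the core of the CHR element (cell cycle genes homology region) of genes that peak in G2 and mitosis. It was in 6 of the 35 replication genes (17.1%) and in 20.2% of all genes with a window. The CCAAT box, searched as CCAAT on both strands, was in 62.9%, 76% and 41.1% of the replication, mitosis and all genes with a window. A match is a run of letters and was not tested for binding.

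In untreated mice these genes were expressed at a higher level in bone than in skin. Of the 44, 42 were higher in untreated bone, 0 were lower and 2 did not pass (edgeR quasi-likelihood test on all 24 libraries, Benjamini-Hochberg adjusted p under 0.05), where 32.6% of all genes tested were higher and 32.6% lower. The median log2 difference was 1.96, against 0.01 for all genes. Counts scaled to library size (CPM) did not overlap between the 4 bone and 4 skin libraries for 41 genes, all higher in bone, where 28.6% of all genes tested were higher without overlap. For this comparison CPM were scaled over all 24 libraries, and elsewhere over the 12 of a tissue, so the untreated values differ slightly between them.

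Cdc6, which loads the MCM ring (ENSMUSG00000017499, chromosome 11, 98907801 to 98923940, GRCm38), had the largest difference. It stood at 93.1, 98.3, 84.2 and 87.8 CPM in untreated bone, against 5.58, 4.75, 7.09 and 3.26 CPM in untreated skin, a log2 difference of 4.13 (SE 0.28, adjusted p = 1.42e-11). E2f2, an E2F activator, stood at 395, 375, 332 and 344 CPM in untreated bone, against 29.8, 17.7, 25.1 and 22.4 CPM in untreated skin (log2 3.93, SE 0.20, adjusted p = 1.82e-13). The bone libraries of both genes lay far above every skin library. Cyclin E1 (Ccne1) averaged 44.1 ± 3.2 CPM in untreated bone and 3.65 ± 0.99 CPM in untreated skin (SD, n = 4 each, log2 3.59). Mcm10, which helps to activate the helicase, averaged 43.7 ± 3.71 CPM in untreated bone and 4 ± 0.83 CPM in untreated skin (log2 3.45). Rrm2, the regulated subunit of ribonucleotide reductase, averaged 223 ± 16.3 CPM in untreated bone and 27.8 ± 6.25 CPM in untreated skin (log2 3.00).

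By role the median log2 difference was 2.84 for the G1/S regulators, 2.55 for origin licensing, 2.23 for the MCM helicase, 2.15 for nucleotide supply, 2.06 for RPA and the lagging-strand enzymes, 1.84 for helicase activation, 1.60 for the polymerases and primase and 1.07 for the clamp and its loader. The exceptions were Pold2, a small subunit of polymerase delta, with 24.9 ± 6.9 CPM in untreated bone and 26.5 ± 10.1 CPM in untreated skin (log2 -0.09, SE 0.23, adjusted p = 0.754), and Gins2, a GINS subunit, with 38.9 ± 6.11 CPM in untreated bone and 39.2 ± 9.57 CPM in untreated skin (log2 -0.01, SE 0.16, adjusted p = 0.949). Gins2 overlaps Gse1 on the opposite strand, and no library strand is stated, so reads of these neighbours may not be separated. Rfc3, a clamp loader subunit, overlapped between the tissues, with 16.5, 22, 19 and 19.4 CPM in untreated bone and 17, 14.6, 13.3 and 14.3 CPM in untreated skin (log2 0.38, adjusted p = 0.0486). It missed the threshold under 21 of 33 alternatives, 18 of them with 1 of the 24 libraries left out (adjusted p up to 0.174).

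**Figure D1:**
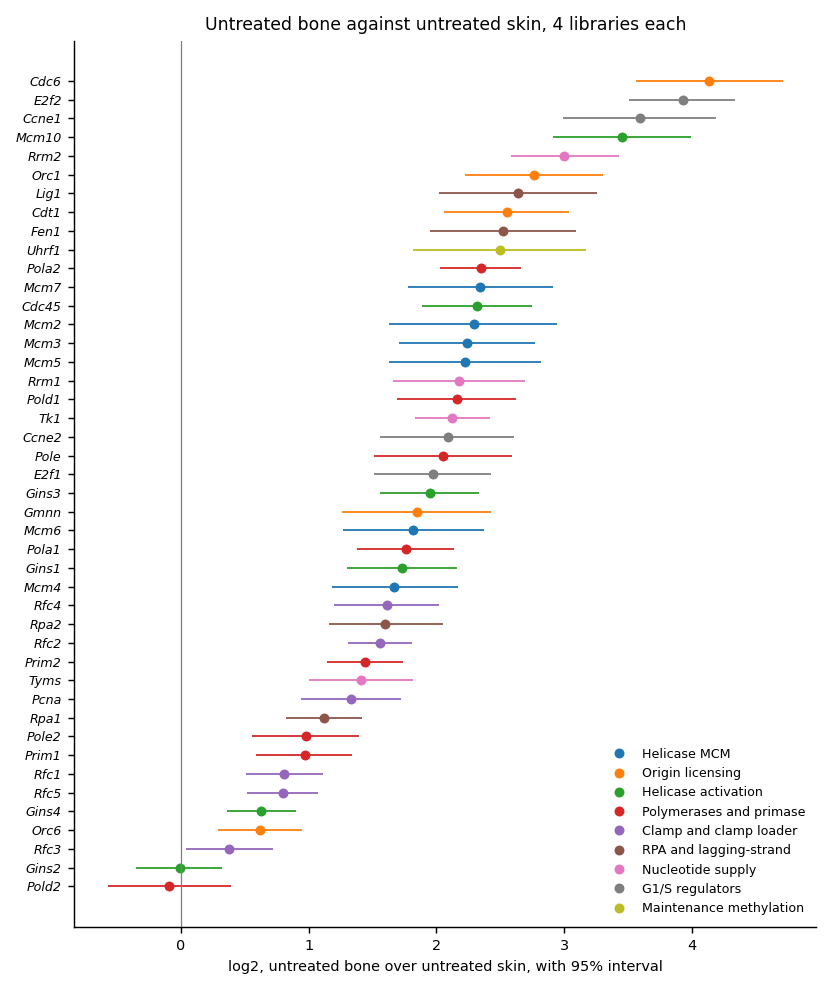
Log2 difference of each gene between untreated bone and untreated skin (x axis), with its 95% interval, coloured by role and ordered by size, 4 libraries per tissue. Cdc6 and E2f2 stand at 4.13 and 3.93, and Gins2 and Pold2 at -0.01 and -0.09.

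Compared per unit of transcript length (TPM, within a group), the order of levels was alike at its ends in both tissues. Pcna was highest at 93.4 ± 17.8 TPM in untreated bone and 36.4 ± 10.6 TPM in untreated skin, and Gins3 was lowest at 3.12 ± 0.607 TPM in untreated bone and 0.775 ± 0.277 TPM in untreated skin. In untreated bone Rrm2 (73.4 ± 11), Mcm3 (60.6 ± 12.3), Tk1 (57 ± 9.92) and E2f2 (48.6 ± 4.84 TPM) followed Pcna, and of these neighbours Mcm3 and Tk1 differed by less than the SD of either. In the MCM ring, whose 6 subunits are built in equal number, Mcm3 was the highest subunit in all 6 groups, and the highest exceeded the lowest by 2.06 to 2.4 times. In the GINS complex the ratio of highest to lowest was 3.12 in untreated bone and 8.65 in untreated skin, with Gins3 the lowest in both.

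Bone after F-PRT was set against untreated bone. Genes that passed included E2f2, with the largest change, some of those for helicase activation, such as Cdc45, Gins1, Gins3 and Mcm10, and some polymerase subunits, and no subunit of the MCM ring passed. Whether the roles differ was not tested. Of the 44, 13 fell, 0 rose and 31 did not pass, beside 17.2% of all genes tested that fell and 15.5% that rose, and the median log2 change was -0.28 against -0.01 for all genes. By role 4 of 6 helicase activation genes, 4 of 8 polymerase and primase genes, 2 of 4 nucleotide supply genes, 2 of 4 G1/S regulators and Uhrf1 fell, and 0 of 6 MCM, 0 of 5 licensing, 0 of 6 clamp and 0 of 4 RPA and lagging-strand genes. At an unadjusted p under 0.05, 0 of 6 MCM, 0 of 5 licensing, 2 of 6 clamp and 0 of 4 RPA and lagging-strand genes were lower, where 22.1% of all genes tested were lower and 20.6% higher. DESeq2 called 13 of the 44 genes, beside 17.6% of all genes that it called lower, and limma-voom 18, beside 21.6%, among them Rfc1, Rfc2 and Rfc5 of the clamp loader, and neither called an MCM ring subunit, a licensing gene or an RPA or lagging-strand gene.

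These changes are relative to the median gene. Scaled by library totals alone, the median gene moved by 0.19 after F-PRT and 0.18 after S-PRT, the medians of the 44 genes were -0.09 and -0.05, and 42 of 44 lay below the median gene in each comparison. E2f2 was then the 1 call after F-PRT and after S-PRT (log2 -0.94 and -0.81), where 1897 and 1668 of 18848 genes tested fell. On deposited TPM without centring the median gene moved by 0.58 and 0.52, and 1 of 44 genes was lower in each comparison, but 38 and 37 lay below the median gene.

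E2f2 (ENSMUSG00000018983, chromosome 4, 136172394 to 136196057) is an E2F activator that is also known for its part in red cell maturation in mice. It stood at 216, 170, 160 and 137 CPM in F-PRT bone and 199, 194, 234 and 127 CPM in S-PRT bone, against 419, 382, 347 and 360 CPM in untreated bone. No irradiated library reached an untreated one. The log2 change was -1.14 after F-PRT (SE 0.18, 0.453-fold, edgeR adjusted p = 0.000295), and it passed under all 22 alternatives, at -1.27 to -0.94. E2f1, its close relative, stood at 29.9, 25.8, 24.5 and 22.8 CPM in F-PRT bone and 31.6, 30.6, 33.5 and 18.9 CPM in S-PRT bone, against 39.9, 41, 35.8 and 35.1 CPM in untreated bone. Its groups did not overlap either (F-PRT log2 -0.56, SE 0.15, adjusted p = 0.0136). The cyclins E did not pass. Ccne1 stood at 62.1, 50.6, 48.4 and 39.3 CPM in F-PRT bone and 55.6, 56.8, 61.4 and 35 CPM in S-PRT bone, against 43.8, 49.5, 45 and 45.2 CPM in untreated bone (F-PRT log2 0.13, SE 0.16). Ccne2 averaged 60.1 ± 13.9 CPM in F-PRT bone, 53.5 ± 17.9 CPM in S-PRT bone and 76.1 ± 10.6 CPM in untreated bone (F-PRT log2 -0.34, adjusted p = 0.27). Both cyclins overlapped between irradiated and untreated bone.

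Helicase activation held 4 of the genes that fell after F-PRT. Gins3 (ENSMUSG00000031669, chromosome 8, 95633453 to 95645060) stood at 8.64, 6.9, 8.09 and 8.4 CPM in F-PRT bone, against 11.3, 12.2, 10.7 and 11.6 CPM in untreated bone (log2 -0.52, SE 0.14, adjusted p = 0.0104). Gins1 (ENSMUSG00000027454, chromosome 2, 150905400 to 150931280) stood at 9.23, 9.26, 10.2 and 7.22 CPM in F-PRT bone and 8.33, 10.2, 10.7 and 7.02 CPM in S-PRT bone, against 13.6, 14.4, 12.7 and 10.7 CPM in untreated bone (F-PRT log2 -0.51, SE 0.16, adjusted p = 0.0242). F-PRT and untreated libraries did not overlap for either GINS subunit, and S-PRT library 3 stood level with the lowest untreated library for Gins1. Cdc45, which travels with the helicase (ENSMUSG00000000028, chromosome 16, 18780447 to 18811987), stood at 25.6, 22.2, 23.5 and 18 CPM in F-PRT bone and 26, 26.1, 28.7 and 16.8 CPM in S-PRT bone, against 28.4, 33.8, 34.9 and 33.4 CPM in untreated bone (F-PRT log2 -0.55, SE 0.15, adjusted p = 0.0149). Mcm10 stood at 37.7, 30.3, 29.2 and 25.8 CPM in F-PRT bone, against 49, 48.4, 42.1 and 42.5 CPM in untreated bone (log2 -0.56, SE 0.16, adjusted p = 0.0173). Every F-PRT library lay below every untreated library for both. Cdc45 and Tk1 each overlap a coding gene on the opposite strand (Ufd1 and Afmid), whose reads may not be separated.

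Among the polymerases, Pola1, the catalytic subunit of the primer-making polymerase alpha (ENSMUSG00000006678, chromosome X, 93304767 to 93632155), stood at 74.2, 60.8, 65.7 and 54.6 CPM in F-PRT bone and 54.2, 78.8, 79.7 and 50.7 CPM in S-PRT bone, against 123, 103, 80.2 and 80.5 CPM in untreated bone. The groups did not overlap, though S-PRT libraries 2 and 3 came within 2 CPM of untreated libraries 3 and 4 (F-PRT log2 -0.60, SE 0.18, adjusted p = 0.0202). Its partner Pola2 averaged 38.8 ± 5.11 CPM in F-PRT bone and 50.1 ± 5.08 CPM in untreated bone (log2 -0.37, adjusted p = 0.0269). Pole, the leading-strand polymerase, averaged 65.5 ± 11.2 CPM in F-PRT bone and 89.6 ± 9.29 CPM in untreated bone (log2 -0.45, adjusted p = 0.0266). Pold1, the catalytic subunit of polymerase delta and the call with the largest p, averaged 43.9 ± 4.32 CPM in F-PRT bone and 58.2 ± 9.62 CPM in untreated bone (log2 -0.41, adjusted p = 0.0476). The F-PRT and untreated libraries of Pola2, Pole and Pold1 overlapped.

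Of the 4 nucleotide supply genes Tk1 and Tyms fell. Tk1, thymidine kinase, stood at 75.3, 55.9, 67.2 and 57.5 CPM in F-PRT bone, against 83.7, 95.7, 83.4 and 87.4 CPM in untreated bone (log2 -0.45, SE 0.13, adjusted p = 0.0142). Tyms, thymidylate synthase, stood at 62.5, 44.1, 50.9 and 41.6 CPM in F-PRT bone, against 72.2, 71.8, 61.9 and 73.1 CPM in untreated bone (log2 -0.49, SE 0.17, adjusted p = 0.0393). Only Tyms overlapped, by 1 library of each group. Uhrf1, which guides maintenance methylation to newly copied DNA (ENSMUSG00000001228, chromosome 17, 56303321 to 56323486), stood at 144, 113, 114 and 94.9 CPM in F-PRT bone and 126, 117, 138 and 79.6 CPM in S-PRT bone, against 150, 186, 164 and 160 CPM in untreated bone. All irradiated libraries lay below all untreated ones (F-PRT log2 -0.50, SE 0.16, adjusted p = 0.0294). Rrm2, of the enzyme that makes deoxyribonucleotides, stood at 236, 181, 189 and 137 CPM in F-PRT bone, against 235, 250, 221 and 221 CPM in untreated bone, with overlap (log2 -0.32, adjusted p = 0.212).

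The genes that load and form the helicase ring overlapped between F-PRT and untreated bone. Mcm5 stood at 152, 125, 117 and 109 CPM in F-PRT bone, against 106, 166, 152 and 162 CPM in untreated bone (log2 -0.22, SE 0.18, adjusted p = 0.368). Mcm2 stood at 147, 107, 122 and 102 CPM in F-PRT bone, against 125, 159, 138 and 153 CPM in untreated bone (log2 -0.27, SE 0.16, adjusted p = 0.212). The 6 ring subunits ranged from -0.29 to -0.04 in log2 change, and the 5 licensing genes from -0.49 to -0.12. Untreated 1, a library in doubt, was the lowest untreated library for every ring subunit. Mcm6 stood at 169, 145, 145 and 134 CPM in F-PRT bone, against 152, 206, 178 and 187 CPM in untreated bone. Its overlap thus rested on Untreated 1 alone, while Mcm2 overlapped with other untreated libraries too. Cdc6 averaged 84.1 ± 16.5 CPM in F-PRT bone and 94.6 ± 5.79 CPM in untreated bone (log2 -0.17), and Cdt1, its loading partner, averaged 65 ± 9.05 CPM in F-PRT bone and 71.4 ± 9.12 CPM in untreated bone (log2 -0.14). Pcna stood at 200, 172, 158 and 135 CPM in F-PRT bone, against 179, 232, 198 and 206 CPM in untreated bone (log2 -0.29, SE 0.16, adjusted p = 0.188). Gmnn stood at 10.6, 6.25, 6.75 and 5.35 CPM in F-PRT bone, against 9.87, 13.3, 10.1 and 7.57 CPM in untreated bone (log2 -0.49, SE 0.24, adjusted p = 0.134). Lig1, the ligase that seals lagging-strand fragments, averaged 77.1 ± 13.4 CPM in F-PRT bone and 93.2 ± 10.3 CPM in untreated bone (log2 -0.27, adjusted p = 0.224). Every one of these genes overlapped, and F-PRT library 1 was the highest of its group for those given by library. A p that misses the threshold does not show that these genes stayed level.

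**Figure D2:**
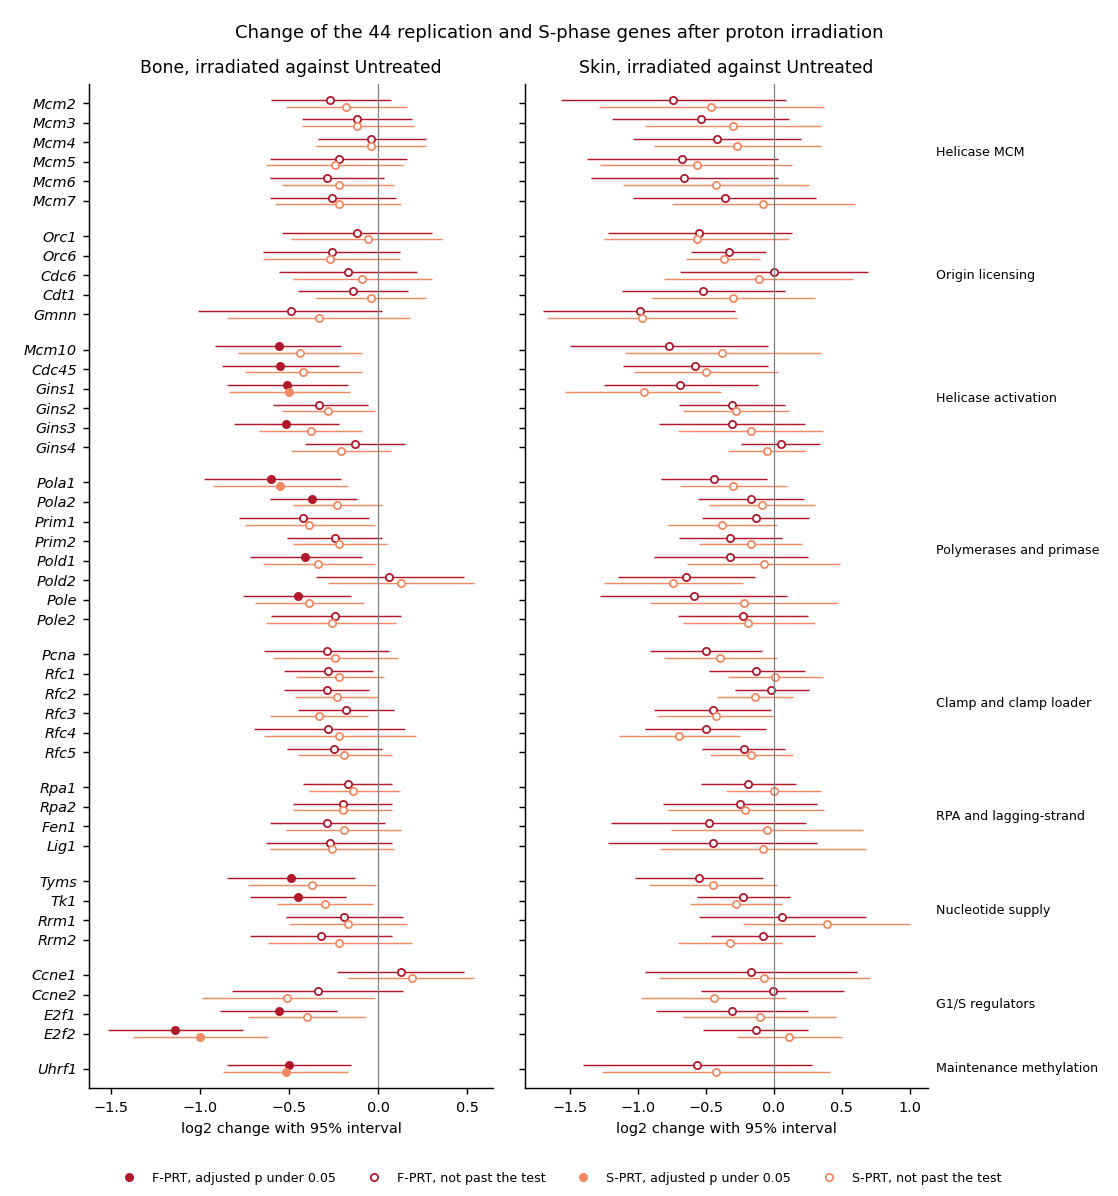
Log2 change against Untreated (x axis, with its 95% interval) of the 44 genes, grouped by role, in bone (left) and skin (right) after F-PRT (dark red) and S-PRT (orange), where filled points passed the test. In bone E2f2 stands at -1.14 and -1 and the MCM ring between -0.29 and -0.04, relative to the median gene, and in skin no gene passed. On uncentred TPM 1 of 44 genes was lower in irradiated bone.

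Over all 44 genes, 11 did not overlap between F-PRT and untreated bone, all lower in F-PRT, where 17% of all genes tested were lower without overlap. Among these 11, Prim1 (log2 -0.42, adjusted p = 0.076) and Rfc1 (log2 -0.28, adjusted p = 0.0767) did not pass the test. E2f2, Gins3 and E2f1 passed on leaving out any 1 library. Tk1 missed the threshold without F-PRT 2 (adjusted p = 0.0509), and Cdc45 and Mcm10 missed it without F-PRT 4 (0.0516 and 0.0585). Gins1 missed it without F-PRT 4, Untreated 1 or Untreated 2 (0.0523 to 0.0767), and Pola1 without these or F-PRT 2 (0.0524 to 0.0672). Pole, Pola2, Uhrf1, Tyms and Pold1 each missed it without any of 5 to 9 libraries, F-PRT 2, F-PRT 3, F-PRT 4 and Untreated 2 among them for each (0.0503 to 0.13). The count of 13 became 6 without F-PRT 2, 8 without F-PRT 3, 4 without F-PRT 4 and 6 without Untreated 2. In the same order 2639 of 19158, 2732 of 19252, 2624 of 19267 and 2563 of 19256 of all genes tested fell. Without 3 bone libraries in doubt (F-PRT 2, F-PRT 3 and Untreated 1) E2f2, Cdc45 and Gins2 were the 3 genes that fell, beside 11.5% of all genes tested that fell. The libraries in doubt were chosen with earlier results of these data known. Leaving them out makes both groups smaller, and the part of that in the lower count was not tested.

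In bone after S-PRT 4 of the 44 genes fell, 0 rose and 40 did not pass, beside 15.2% of all genes tested that fell and 13.3% that rose, and the median log2 change was -0.24 against -0.01 for all genes. The count that fell lies below the share of all genes. The untreated libraries are those of the F-PRT comparison, so the comparisons are not independent. E2f2 fell by 1 on the log2 scale (SE 0.17, 0.5-fold, adjusted p = 0.000936), Uhrf1 by 0.52 (SE 0.16, adjusted p = 0.0281), Gins1 by 0.50 (SE 0.16, adjusted p = 0.031) and Pola1 by 0.55 (SE 0.18, adjusted p = 0.0329). The libraries of all but Gins1 lay below every untreated library. Next to the threshold stood Gins3 with log2 -0.38 (adjusted p = 0.05, just above it) and Cdc45 with -0.42 (0.0556). In all 8 genes lay lower without overlap, where 14.4% of all genes did, and the ring subunits ranged from -0.24 to -0.04. E2f2 passed on leaving out any 1 library. Uhrf1, Gins1 and Pola1 each missed the threshold without 4 or 5 different libraries, S-PRT 4 and Untreated 2 among them, at adjusted p 0.0548 to 0.109. The count of 4 became 10 without S-PRT 3, 1 without S-PRT 4, 7 without Untreated 1, 1 without Untreated 2 and 2 without Untreated 3. In the same order 2684 of 19237, 2279 of 19237, 2927 of 19157, 2220 of 19256 and 2467 of 19165 of all genes tested fell.

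**Figure D3:**
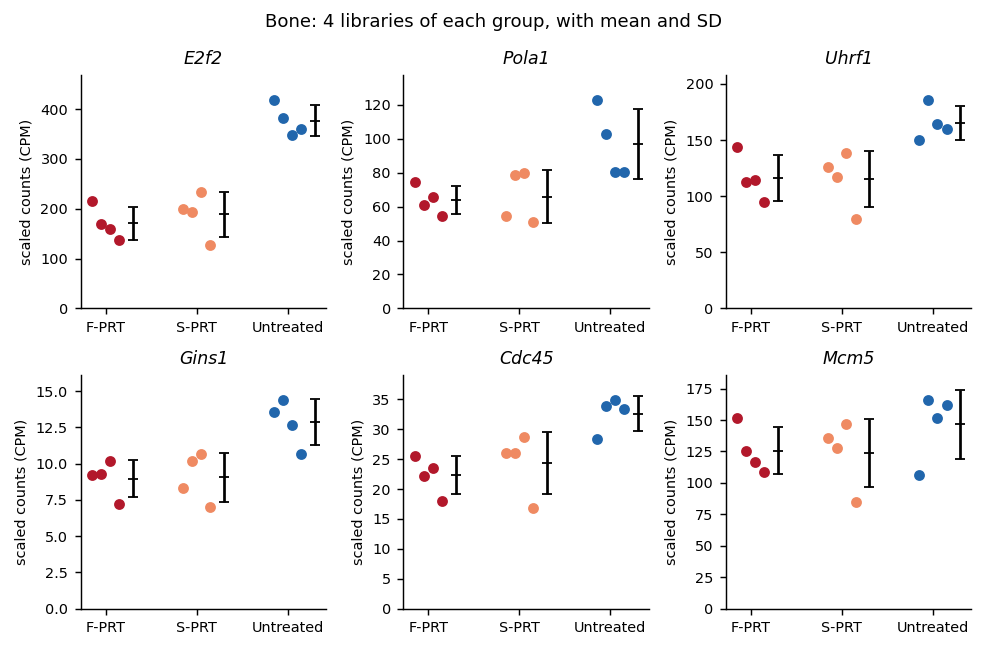
Scaled counts (CPM, y axis from 0) of 6 genes in the 4 F-PRT, 4 S-PRT and 4 untreated bone libraries, each point a library, with the group mean and SD beside them. E2f2 in irradiated bone spans 127 to 234 CPM, below the 347 to 419 CPM of untreated bone, while the Mcm5 groups overlap.

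Set directly against each other in bone, F-PRT and S-PRT gave no call among the 44 genes. edgeR, DESeq2 and limma-voom each called 0, edgeR gave 0 at an unadjusted p under 0.05, and no gene was free of overlap. Over all genes tested 0.0% were lower and 0.00531% higher past the test, 1.24% lower and 2.12% higher at the unadjusted p, and 1.04% lower and 1.81% higher without overlap. DESeq2 called 0.0% lower and 0.111% higher, and limma-voom 0.0% and 0.00531%. The smallest p values belonged to Rfc3 (log2 0.15, 95% interval -0.12 to 0.42), Tk1 (-0.15, -0.42 to 0.12) and Pola2 (-0.13, -0.38 to 0.11). For E2f2 the log2 difference was -0.14, with an interval of -0.52 to 0.23.

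In several groups 1 library was the highest or lowest for most of the 44 genes. In bone S-PRT, library 4 was the lowest of its group for 44 of 44 genes, and library 3 was the highest for 36. In bone F-PRT, library 1 was the highest for 42 and library 4 the lowest for 37, and in untreated bone library 2 was the highest for 33 and library 1 the lowest for 26 and the highest for 5. In skin F-PRT no library was the highest for more than 16 or the lowest for more than 17. The mean log2 CPM of the 44 genes was 5.37 to 5.84 in F-PRT bone, 5.20 to 5.88 in S-PRT bone and 5.80 to 6.06 in untreated bone, so the groups overlapped. For 28 mitosis genes it was 5.55 to 6.21 in F-PRT bone and 5.48 to 6.20 in S-PRT bone, against 6.6 to 6.73 in untreated bone, with no overlap.

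**Figure D4:**
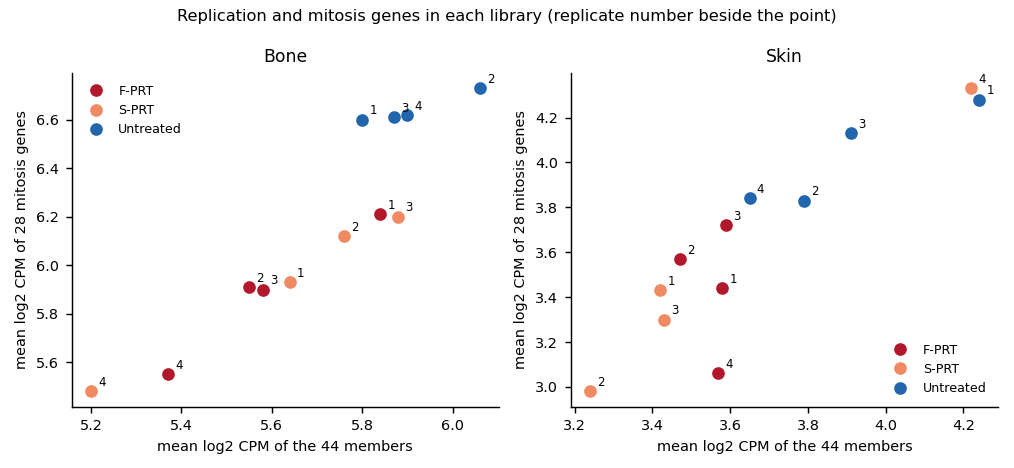
Mean log2 CPM of the 44 replication genes (x axis) against that of 28 mitosis genes (y axis) for each library of bone (left) and skin (right), coloured by group and numbered by replicate. In bone the untreated libraries lie above all irradiated ones for mitosis genes (6.6 to 6.73 against 5.48 to 6.21) and overlap with them for replication genes, and in skin S-PRT 4 lies at 4.22, beside Untreated 1 at 4.24.

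Other genes of the cell cycle were counted from lists drawn up by pathway. Over all genes tested in bone 17.2% fell and 15.5% rose after F-PRT, and 15.2% fell and 13.3% rose after S-PRT. Of 42 other replication genes 19 fell and 0 rose in bone after F-PRT, and 10 fell and 0 rose after S-PRT, with medians of -0.34 and -0.30. Cdc7, the kinase that fires licensed origins, averaged 17.2 ± 2.52 CPM in F-PRT bone, 17.8 ± 3.78 CPM in S-PRT bone and 29.9 ± 3.96 CPM in untreated bone (F-PRT log2 -0.79, adjusted p = 0.00175, S-PRT log2 -0.75, adjusted p = 0.00302). Its activator Dbf4 averaged 33.1 ± 4.08 CPM in F-PRT bone, 32.1 ± 6.66 CPM in S-PRT bone and 49 ± 5.71 CPM in untreated bone (log2 -0.57 and -0.61). Top2a, which untangles copied DNA, averaged 295 ± 47.8 CPM in F-PRT bone, 288 ± 70.8 CPM in S-PRT bone and 504 ± 44.6 CPM in untreated bone (log2 -0.77 and -0.81, adjusted p = 0.00341 and 0.00301). Of 28 mitosis genes 26 fell after F-PRT and 25 after S-PRT, with medians of -0.77 and -0.69, and 0 rose.

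Of 36 other G1/S regulators tested 19 fell and 4 rose in bone after F-PRT, and 17 fell and 4 rose after S-PRT. Myb, a factor of dividing blood progenitors, averaged 50.1 ± 5.55 CPM in F-PRT bone, 51.1 ± 10.1 CPM in S-PRT bone and 152 ± 21.7 CPM in untreated bone (log2 -1.61 and -1.58). Cdkn1a, the p53-driven inhibitor of cyclin kinases, averaged 129 ± 31.3 CPM in F-PRT bone, 130 ± 16 CPM in S-PRT bone and 16.7 ± 2.05 CPM in untreated bone (log2 2.95 and 2.97). Cyclin D1 (Ccnd1) averaged 110 ± 28.7 CPM in F-PRT bone, 101 ± 14 CPM in S-PRT bone and 35.1 ± 4.4 CPM in untreated bone (log2 1.65 and 1.52). Of 22 other nucleotide supply genes 2 fell and 4 rose after F-PRT, and 3 fell and 2 rose after S-PRT. Over all genes tested 17.2% fell and 15.5% rose after F-PRT, and 15.2% fell and 13.3% rose after S-PRT. The nucleotide supply counts, and the count of G1/S regulators that rose, lie near or below these shares. Cad, which starts pyrimidine synthesis, was among the nucleotide supply genes that rose after both beams (log2 0.33 and 0.40, adjusted p = 0.0445 and 0.0188).

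Markers of marrow cells also changed in bone, with some lists lower and others higher. Over all genes tested 17.2% fell and 15.5% rose after F-PRT, and 15.2% fell and 13.3% rose after S-PRT. Of 10 erythroid precursor markers 4 fell and 0 rose after each beam, and their summed level ran from 2760 to 4570 CPM in F-PRT bone and 2720 to 5010 CPM in S-PRT bone, against 6530 to 7670 CPM in untreated bone. All 10 granulocyte precursor markers fell after each beam, with sums of 410 to 501 CPM in F-PRT bone and 258 to 678 CPM in S-PRT bone, against 745 to 3200 CPM in untreated bone. Untreated 1 stood apart at 745 CPM, where the other untreated libraries had 2190, 2860 and 3200 CPM. Its mature neutrophil sum was 4350 CPM, against 11200, 15000 and 16500 CPM in the others. Its erythroid precursor sum of 7670 CPM was the highest, and its total of 10.91 M counts the lowest of all libraries. All 10 megakaryocyte markers fell too, with sums of 200 to 249 CPM in F-PRT bone and 185 to 241 CPM in S-PRT bone, against 1250 to 1470 CPM in untreated bone. Of mature neutrophil markers 9 of 10 fell, and of early B cell markers 7 of the 9 tested fell, after each beam. Macrophage markers rose in 9 of 10 genes and T cell and osteoclast markers in 8 of 10 each after each beam, with 1 osteoclast marker lower. Fibroblast markers rose in 5 of 10 genes after F-PRT and 4 after S-PRT, osteoblast markers in 4 and 5, and endothelial markers in 5 and 5 with 1 lower in each. Of stem and progenitor markers 2 fell and 1 rose after each beam. No marker of these lists was at 0 in every library of a bone group. Suprabasal keratinocyte markers, which belong to skin, rose in 9 of 9 genes tested after F-PRT and 1 of 9 after S-PRT. Their sums were 4.7, 184, 34.1 and 61.9 CPM in F-PRT bone and 8.77 to 32.7 CPM in S-PRT bone. Untreated bone had 3.73 to 7.38 CPM, a range that held F-PRT library 1, and Dsc1 was at 0 there. In bulk RNA fewer cells of a type and less RNA per cell cannot be told apart, and the part of these markers in the changes of the 44 genes was not tested. The labelled tissue held osteoblast markers at summed levels of 12500 to 32000 CPM in bone, against 89 to 1390 CPM in skin, where Ibsp was at 0. Basal keratinocyte markers summed to 297 to 451 CPM in bone and 8710 to 33600 CPM in skin.

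Some skin libraries stood apart. S-PRT 4 had a mean of 4.22 log2 CPM over the 44 genes, while S-PRT 1, 2 and 3 lay between 3.24 and 3.43, and it was the highest of its group for 43 of 44 genes. Its summed endothelial markers stood at 9.84 CPM and its basal keratinocyte markers at 33600 CPM, where the rest of the group had 223 to 252 and 9660 to 11900 CPM. Untreated 1 was at 4.24 log2 CPM, against 3.65 to 3.91 in the other untreated skin libraries. S-PRT 1 stood apart in other markers, with hair matrix and shaft genes at 822 CPM and skeletal muscle genes at 13200 CPM, where the rest of its group had 74 to 220 and 373 to 2490 CPM, and without it 0 of the 44 genes passed against untreated skin after either beam, as with all libraries. Endothelial sums were 225 to 248 CPM in F-PRT skin, against 82.9 to 191 CPM in untreated skin, although 0 of 10 endothelial genes passed, with 0 of 10 fibroblast and 0 of 10 basal keratinocyte genes. The part of these markers in the results was not tested. For the 44 genes against untreated skin, results are given with and without S-PRT 4. The other lists in skin, and F-PRT against S-PRT skin, are given with it only.

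F-PRT skin was compared with untreated skin, and no gene of the 44 passed the test. edgeR called 0 and DESeq2 0 (2.96% of all genes lower by DESeq2), limma-voom called 10, all lower (6.88% of all genes lower by limma-voom), and at an unadjusted p under 0.05 edgeR had 11 lower and 0 higher. Over all genes tested 1.39% were lower and 1.0% higher past the test, and 8.57% lower and 6.32% higher at the unadjusted p. The median log2 change was -0.35, against -0.02 for all genes, and 14 genes were lower without overlap, where 8.14% of all genes tested were. On library totals alone 37 of 44 were lower, with a median of -0.22, and on uncentred TPM 29 were, where the median gene moved by 0.19. Gmnn, which blocks relicensing after origins have fired, had the smallest p and stood at 1.92, 0.921, 1.06 and 1.41 CPM in F-PRT skin, against 2.44, 2.52, 2.66 and 2.98 CPM in untreated skin (log2 -0.99, SE 0.32, adjusted p = 0.161). Pcna stood at 53.9, 48.9, 55.4 and 55 CPM in F-PRT skin, against 90.9, 74.1, 72.8 and 63.9 CPM in untreated skin (log2 -0.50, SE 0.19, adjusted p = 0.24). Pold2 averaged 16.4 ± 1.42 CPM in F-PRT skin and 25.6 ± 9.4 CPM in untreated skin (log2 -0.65, adjusted p = 0.214). Gmnn and Pcna did not overlap between the groups, and Pold2 did.

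Leaving out S-PRT 4, which enters this fit through the shared spread, the scaling and the filter on low counts, gave 6 lower genes after F-PRT, beside 3.84% of all genes tested. They were Tyms (adjusted p = 0.0116), Pcna (0.0193), Pole (0.0242), Mcm6 (0.0385), Pola1 (0.0466) and Gmnn (0.0483). No gene passed on leaving out any other single skin library. Of the MCM ring all 6 subunits had negative changes, with a median log2 of -0.60 and adjusted p 0.362 to 0.646. Mcm2 stood at 17.5, 12.4, 18 and 17.6 CPM in F-PRT skin, against 42, 23.7, 23.9 and 19.7 CPM in untreated skin, without overlap.

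After S-PRT no gene of the 44 passed in skin with all libraries. edgeR called 0, DESeq2 5 and limma-voom 16, all lower, where DESeq2 called 4.35% and limma-voom 8.01% of all genes lower, with 5 lower and 0 higher by edgeR at an unadjusted p under 0.05, beside 2.52% of all genes tested that were lower and 1.83% that were higher past the test, and 8.84% lower and 7.98% higher at the unadjusted p. The median log2 change was -0.28, against 0.00 for all genes, and 3 genes (Gmnn, Rfc4 and Gins1) were lower without overlap, where 5.37% of all genes tested were. On uncentred TPM 23 of 44 were lower, where the median gene moved by 0.22. Gins1 stood at 1.34, 1.79, 1.62 and 2.64 CPM in S-PRT skin, against 4.83, 3.02, 3.63 and 2.86 CPM in untreated skin (log2 -0.96, SE 0.26, adjusted p = 0.0636). Rfc4, a clamp loader subunit, stood at 3.62, 2.31, 2.78 and 3.75 CPM in S-PRT skin, against 5.65, 5.26, 4.41 and 4.87 CPM in untreated skin (log2 -0.70, SE 0.21, adjusted p = 0.0837). Rfc4 overlaps the far more abundant Eif4a2 on the opposite strand.

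Without S-PRT 4, 16 genes were lower in S-PRT skin, beside 5.23% of all genes tested, and the median log2 change was -0.50. S-PRT 4 was the highest of its group for 43 of 44 genes, so leaving it out by itself lowers the S-PRT level of those genes. Untreated 1, with a mean of 4.24 log2 CPM beside 4.22 in S-PRT 4, stayed in this fit. Tyms had the smallest p (log2 -0.76, adjusted p = 0.00252), and the MCM ring subunits Mcm6 (-0.93, 0.00952), Mcm5 (-1.04, 0.0149) and Mcm2 (-1.08, 0.0155) were among the 16. Mcm2 stood at 13.5, 10.8, 14.1 and 41.1 CPM in S-PRT skin, where 41.1 is library 4, against 42, 23.7, 23.9 and 19.7 CPM in untreated skin. Without both skin libraries in doubt, S-PRT 4 and Untreated 1, 19 genes were lower after S-PRT and 7 after F-PRT, beside 10.5% and 5.84% of all genes tested. No gene passed between F-PRT and S-PRT skin by edgeR, DESeq2 or limma-voom, 0 had an unadjusted p under 0.05, and all 44 overlapped. Over all genes tested 0.0% were lower and 0.0% higher past the test, 1.44% lower and 1.3% higher at the unadjusted p, and 1.31% lower and 1.37% higher without overlap. DESeq2 called 0.0% lower and 0.0105% higher, and limma-voom 0.0% of each. The smallest p values there belonged to Ccne2 (log2 0.43, 95% interval -0.10 to 0.97), E2f2 (-0.25, -0.63 to 0.14) and Rrm2 (0.24, -0.14 to 0.63).

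In the other replication, nucleotide supply, G1/S and mitosis lists few single genes passed in skin. Of 27 p53 targets tested 17 rose and 0 fell after F-PRT, and 20 rose and 0 fell after S-PRT. Over all genes tested 1.39% fell and 1.0% rose after F-PRT, and 2.52% fell and 1.83% rose after S-PRT. The 28 mitosis genes had a median log2 change of -0.61 after F-PRT and -0.41 after S-PRT, with 28 of 28 negative after each and 13 and 8 lower at an unadjusted p under 0.05 (1 passed in each). Of the 42 other replication genes Pole4, a small subunit of polymerase epsilon, fell after F-PRT (log2 -0.58, adjusted p = 0.0419) and after S-PRT (-0.52, 0.0489), and of the mitosis genes Nuf2, a kinetochore protein, fell (-0.93, 0.032 and -0.96, 0.0191). Cdkn1a rose 1.86-fold after F-PRT and 1.85-fold after S-PRT in skin (adjusted p = 0.0377 and 0.0277), and Ccnd1 and Ccnd2 rose with it. Mki67, a proliferation marker, averaged 85.1 ± 13.6 CPM in F-PRT skin, 115 ± 69.2 CPM in S-PRT skin and 154 ± 24.3 CPM in untreated skin and did not pass.

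Whether a beam's effect differed between the tissues was tested with an interaction term fitted to the 24 libraries. Of the 44 genes E2f2 passed, with a change in bone that was lower than that in skin by 0.98 on the log2 scale for F-PRT (95% interval -1.51 to -0.45, adjusted p = 0.0153) and by 1.09 for S-PRT (-1.62 to -0.56, adjusted p = 0.00785), where 4.66% and 4.96% of all genes tested were lower in this sense and 5.99% and 4.49% higher. This fit treats the 24 libraries as independent. With the shared code as a replicate block E2f2 missed the threshold for F-PRT (-1.02, adjusted p = 0.0571) and passed for S-PRT (-1.12, adjusted p = 0.0428). In skin E2f2 stood at 19.9, 20.5, 22.6 and 21 CPM after F-PRT and 19.4, 22, 26 and 32.4 CPM after S-PRT, against 28.4, 17.2, 24.9 and 21.8 CPM in untreated skin, with overlap throughout. Pold2 leaned the other way (0.73 and 0.89, adjusted p = 0.163 and 0.0936) and did not pass with all libraries. It passed for S-PRT without skin S-PRT 4 (1.03, adjusted p = 0.0474) or without skin Untreated 4 (1.05, adjusted p = 0.0437). For the other genes the change in bone was not shown to differ from that in skin.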

How the data were processed

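Bone and skin RNA was polyA-selected and sequenced with paired reads of 150 bases, per the labels. The submitters' processing notes list RSEM, STAR, cutadapt and FastQC, without versions, and GRCm38. The deposited RSEM tables hold expected counts, TPM and FPKM per the file headers, with no strand stated. Expected counts as deposited by the authors were rounded and tested; TPM made by the authors gave level orders and 1 alternative, and the authors' FPKM was not used. Names came from GENCODE M21 (55230 of 55471 identifiers, 99.57%). Totals ran from 10.91 M to 22.09 M counts per library.

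Genes were tested with edgeR 4.0.16 (R 4.3.3, TMM, filterByExpr, quasi-likelihood) on the 12 libraries of a tissue, or all 24 for comparisons between tissues, and adjusted over all genes tested (Benjamini-Hochberg, 0.05). CPM values are TMM-scaled, log2 CPM has a prior count of 2, and fold changes carry SE. Alternatives were DESeq2 1.42.0, limma 3.58.1 (voom with quality weights), RLE, other filters (none, or 1 CPM in 4 libraries), a replicate block, the compared groups alone, leaving out libraries, and, chosen after seeing the data, library totals without TMM and limma on log2(TPM + 0.5) centred on the median gene. The workflow was tested on simulated data.

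The 44 genes, the lists and the libraries in doubt were chosen with earlier results of these data known. Named were a panel of S-phase genes, those past the test (the 12 of smallest p, otherwise the 3 of smallest p) and up to 4 genes per other list; Pold1, Prim1, Rfc1, Mcm6, Mcm10 in untreated tissues, Pole4, Nuf2, Cad and the remaining genes of short counts were named after their values were seen. RSEM divides reads among near-identical genes. Replicate numbers, and the codes shared by a bone and a skin library, were not shown to pair the samples.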

Additional observations from a re-analysis of the deposited data

Results flagged for a closer look

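In 126 groups of 4 libraries examined for a library far from the others, where chance marks about 1 in 20, 7 values stood apart. Skin S-PRT 4 held 34.1 CPM of Pole (other S-PRT skin libraries 11 to 13.3), 29 CPM of Rrm2 (18.6 to 19.6) and 40.5 CPM of Uhrf1 (10.3 to 15). Bone F-PRT 1 held 50.4 CPM of Pold1 (others 41.6 to 41.9). Bone S-PRT 4 held 35.7 CPM of Pola2 (44.2 to 45.5) and 54.8 CPM of Tk1 (75.4 to 78.8). Bone Untreated 3 held 61.9 CPM of Tyms (71.8 to 73.1).

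The effect on E2f2 differed between bone and skin by the interaction test, with log2 differences of -0.98 after F-PRT and -1.09 after S-PRT.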

How the results depend on the processing

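No gene reversed direction past the test under any alternative. Counts of genes past the test, all lower unless stated, moved as follows. In bone after F-PRT the 13 genes became 1 on library totals without TMM, 5 with no filter and 3 without the libraries in doubt, and 4 to 16 on leaving out 1 library. Of all genes tested 1897 of 18848 fell on library totals, 2336 of 41800 with no filter and 2250 of 19514 without the libraries in doubt. On leaving out 1 library 2563 to 3260 of all genes fell. In bone after S-PRT the 4 became 1 on library totals, 8 by DESeq2, 9 by limma-voom, 2 with no filter and 2 with only the groups compared, and 1 to 10 on leaving out 1 library. Of all 18848 genes tested 1668 fell on library totals, 3017 by DESeq2 and 3327 by limma-voom. With no filter 2048 of 41800 fell, and with only the groups compared 2333 of 18044. On leaving out 1 library 2220 to 2927 of all genes fell. In skin after F-PRT the 0 became 10 by limma-voom, 4 with only the groups compared and 7 without the libraries in doubt, and 0 to 6 on leaving out 1 library. Of all genes tested 1309 of 19038 fell by limma-voom, 635 of 18323 with only the groups compared and 1124 of 19258 without the libraries in doubt. On leaving out 1 library 111 to 745 of all genes fell. In skin after S-PRT the 0 became 1 on library totals, 5 by DESeq2, 16 by limma-voom, 1 with the filter of 1 CPM and 19 without the libraries in doubt, and 0 to 16 on leaving out 1 library. Of all 19038 genes tested 387 fell on library totals, 828 by DESeq2 and 1525 by limma-voom. With the filter of 1 CPM 510 of 17179 fell, and without the libraries in doubt 2014 of 19258. On leaving out 1 library 263 to 1014 of all genes fell. For the interaction the single gene became 2 by limma-voom for F-PRT (Rfc2 joined E2f2), and 2 on library totals for S-PRT (Pold2, higher, joined it), and 1 to 2 on leaving out 1 library. Of all 20754 genes tested limma-voom called 2074 lower for F-PRT, and library totals gave 777 lower and 1450 higher for S-PRT. With a replicate block the count was 9 in bone after S-PRT and 0 for the F-PRT interaction. Of all genes tested 2639 of 18848 fell in the former fit and 568 of 20754 were lower in the latter. Deviations of same-numbered libraries correlated at -0.261 to 0.187 in bone and -0.343 to 0.372 in skin (7 of 12 pairs over 0.1), and those of a bone and a skin library of 1 code at -0.289 to 0.194, so the numbers and codes are not shown to pair the samples. The cause of these moves was not tested. The count of 42 genes higher in untreated bone was 41 or 42 under every alternative, Rfc3 being the gene that missed the threshold. Skin counts of 1 to 3 CPM (Gmnn, Gins1) rest on few reads, and intervals cover the spread between 4 libraries only.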
